A study of Mus musculus with 2 samples.

Results

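Antigen presentation on major histocompatibility complex (MHC) class I was examined through 10 genes: B2m, Tap1, Tap2, Tapbp, Psmb8, Psmb9, Psmb10, Psme1, Psme2 and Nlrc5. They were taken by name from a list of pathway genes, each read from its probe set with the highest mean over both arrays, and all 10 were found among 22184 named genes. RNA came from colon lamina propria cells sorted as inflammatory monocytes, that is CD11b+ Ly6C-hi cells without CD3 or Ly6G. One sample was of WT mice and the other of Nlrp6-/- mice, which lack the inflammasome sensor NLRP6, and the labels give the C57BL/6 strain for both. All mice had been injected with azoxymethane (AOM), a carcinogen that targets the colon, at 10 mg/kg. They were then given 2% dextran sodium sulfate (DSS), which damages the colon epithelium, for 5 days starting on day 5, and cells were taken on day 10. The number and age of the mice, and how Nlrp6 was deleted, are not given in the sources used here. Each genotype had 1 Affymetrix Mouse Gene 2.1 ST array, so the differences have no error and no test, and they describe these 2 samples.

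MHC class I molecules display peptides from inside the cell to CD8 T cells. The proteasome cuts proteins into peptides, and interferons induce catalytic subunits that replace its own to form the immunoproteasome, which favours peptides that fit class I grooves. The TAP transporter moves the peptides into the endoplasmic reticulum, where tapasin helps load them onto a heavy chain paired with beta-2-microglobulin. NLRC5 switches on many of these genes in the nucleus, and both type I interferon and interferon-gamma can induce them, in monocytes as in most nucleated cells.

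The upstream sequences of 3 promoter regions of these genes and of the interferon-induced gene Ifit1 are shown because the genes are set beside interferon-stimulated genes below. Whether these sequences have a part in the differences was not tested. They are RefSeq sequences of mouse build GRCm38.p6, read 5′ to 3′, and 8 of the 10 genes had an entry in that table. Psmb9 and Tap1 point away from each other, and the 225 bases between their annotated starts (chr17:34187331-34187555, plus strand, the sense of Tap1) lie upstream of both. The other stretches are the 250 bases before the start of Psmb8 (chr17:34197945-34198194, plus strand), B2m (chr2:122147437-122147686, plus strand) and Ifit1 (chr19:34640639-34640888, plus strand). Capitals mark matches on either strand to a core interferon-stimulated response element (ISRE), GAAANNGAAA, or to a gamma-activated site (GAS), TTCNNNGAA.
Psmb9-Tap1 interval: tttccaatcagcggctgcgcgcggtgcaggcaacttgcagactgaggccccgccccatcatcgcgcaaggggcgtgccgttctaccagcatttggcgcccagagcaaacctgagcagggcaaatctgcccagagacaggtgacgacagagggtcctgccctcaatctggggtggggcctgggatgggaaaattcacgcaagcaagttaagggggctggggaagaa
Psmb8: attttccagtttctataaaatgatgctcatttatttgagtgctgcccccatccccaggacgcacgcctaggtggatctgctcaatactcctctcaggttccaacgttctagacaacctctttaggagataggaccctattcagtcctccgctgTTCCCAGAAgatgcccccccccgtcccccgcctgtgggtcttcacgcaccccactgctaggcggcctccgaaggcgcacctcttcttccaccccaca
B2m: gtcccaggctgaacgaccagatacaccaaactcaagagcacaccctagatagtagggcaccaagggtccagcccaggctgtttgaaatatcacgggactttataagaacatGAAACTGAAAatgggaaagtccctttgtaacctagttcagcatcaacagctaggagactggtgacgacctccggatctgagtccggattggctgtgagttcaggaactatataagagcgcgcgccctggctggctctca
Ifit1: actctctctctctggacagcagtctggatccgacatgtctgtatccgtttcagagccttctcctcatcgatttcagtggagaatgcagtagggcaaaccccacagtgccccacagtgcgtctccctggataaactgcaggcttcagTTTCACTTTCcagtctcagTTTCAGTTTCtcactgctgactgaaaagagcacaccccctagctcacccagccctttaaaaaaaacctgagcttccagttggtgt
B2m held 1 ISRE core, Psmb8 held 1 GAS, Ifit1 held 2 ISRE cores, and the interval between Psmb9 and Tap1 held neither. Over windows from 250 bases before to 50 after the start, 2 of the 8 class I presentation genes had the ISRE core (B2m and Psme1), against 3.44% of all 32851 windows. The GAS was in 1 of the 8 (Psmb8), against 8.30% of all windows. Among listed type I interferon-stimulated genes, 13 of 24 had the ISRE core and 4 of 24 the GAS. That list was chosen with earlier results of these data known. Letters of the enhancer that class I and class II promoters share were searched too. TGACG was in 4 of the 8 genes (B2m, Psmb9, Psme2 and Tap1) and in 20.8% of all windows, and CCAAT in 4 of the 8 (B2m, Psmb9, Tap1 and Tapbp) and in 37.4%. The windows of Psmb9 and Tap1 overlap, so their matches can be the same letters.

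The class I presentation genes were near their WT level in the Nlrp6-/- sample. Listed genes that type I interferon induces, chosen with earlier results of these data known, were mostly well above theirs. Levels are robust multiarray average (RMA) values on the log2 scale, every difference is Nlrp6-/- minus WT on that scale, and levels of different genes are not compared. All 10 genes were above the detection floor on both arrays, which was 3.26 in WT and 3.22 in Nlrp6-/-. The floor is the signal that 95% of probe sets of odorant and pheromone receptor genes stay under. Of the 10, 5 were higher and 5 lower in Nlrp6-/-, and the median difference was 0.01. Among the 9537 genes above the floor on at least 1 array, called measured genes below, 51.6% were higher and the median was 0.01 too. No member was 1.5-fold higher, where 6.21% of measured genes were, and none was 1.5-fold lower, where 3.05% were (9.26% together). So none was 2-fold higher either, where 1.61% of measured genes were, or 2-fold lower, where 0.325% were (1.94% together). The members' differences ran from -0.37 for Tap1 to 0.31 for Psmb8, and their median size was 0.10 against 0.22 over all measured genes.

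**Figure D1:**
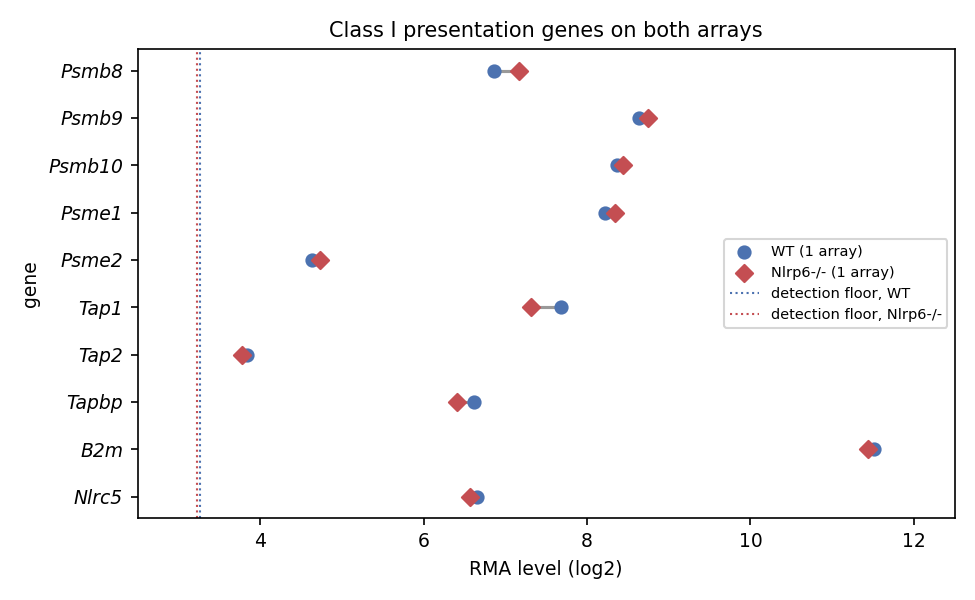
RMA levels (log2) of the 10 class I presentation genes on the WT array (circles) and the Nlrp6-/- array (diamonds), 1 array each, with the detection floors dotted at 3.26 and 3.22. The symbols of a gene nearly coincide except for Tap1, Tapbp and Psmb8, and the 5 proteasome genes at the top lie slightly to the right in Nlrp6-/-.

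With no replicate arrays, other probe sets gave the only yardsticks of technical spread. The odorant and pheromone receptor probe sets, whose genes should be silent in colon monocytes, differed between the arrays with an SD of 0.19. In 7 of the 10 members the difference was smaller than that, the exceptions being Tap1, Psmb8 and Tapbp. For 422 genes, more than 1 probe set cleared both floors, and the probe sets of a gene disagreed by a median of 0.31 and by 0.79 at the 90th percentile. All differences of the members but that of Tap1 were below this median. The median is a gap between differences, though, and not a difference between arrays. The receptor SD comes from probe sets near background and need not hold at higher levels. Both are loose yardsticks. Only Tapbp had a second probe set of its own. It went from 4.61 in WT to 4.40 in Nlrp6-/-, a difference of -0.21, close to that of the brighter one.

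**Figure D2:**
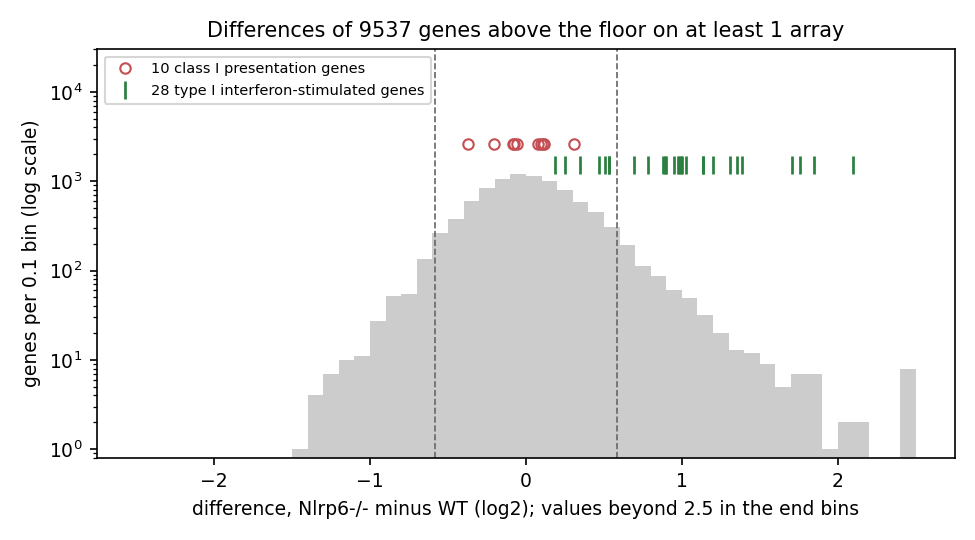
Histogram of the log2 difference, Nlrp6-/- minus WT, of the 9537 measured genes (log count axis, bins of 0.1, values beyond 2.5 in the end bins), with the 10 class I presentation genes as circles, the 28 measured type I interferon-stimulated genes as ticks and 1.5-fold dashed. The circles lie within the dense centre between -0.37 and 0.31, and 21 of the 28 ticks lie beyond the upper dashed line.

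The peptide-producing members are the 3 inducible catalytic subunits of the immunoproteasome and both subunits of its cap PA28. Each was slightly higher in Nlrp6-/-, as 51.6% of measured genes were. Only Psmb8 exceeded the receptor SD of 0.19, so the signs of the others are uncertain. Psmb8, the chymotrypsin-like subunit known as LMP7, read 6.86 in WT against 7.17 in Nlrp6-/-. Its difference of 0.31 is a 1.24-fold higher level, and 35.3% of measured genes were at least as far from 0 in either direction. Psmb9, the LMP2 subunit, read 8.64 in WT against 8.74 in Nlrp6-/-, differing by 0.11. Psmb10, the MECL-1 subunit, read 8.37 and 8.44, differing by 0.08. These 2 were nearly level between the samples, and at least 73.7% of measured genes lay as far from 0 or further. Psme1, the alpha subunit of PA28, which opens the proteasome gate, read 8.22 in WT against 8.34 in Nlrp6-/-. Psme2, the beta subunit, was at 4.63 and 4.73. The differences of the PA28 pair, 0.12 and 0.10, were within 0.02 of each other.

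The constitutive subunits that the immunosubunits displace did not separate from them by much. Psmb5, the counterpart of Psmb8, read 8.55 in WT against 8.44 in Nlrp6-/-, so the difference of Psmb8 exceeded that of Psmb5 by 0.42. Psmb6, the counterpart of Psmb9, was at 7.70 and 7.66, which left a gap of 0.14. For Psmb10 the order was turned: its counterpart Psmb7 read 8.15 in WT against 8.34 in Nlrp6-/-, and the gap was -0.11. All 3 gaps are under 1.5-fold, and that of Psmb8 is the widest. Psme3, which encodes a nuclear proteasome cap related to PA28, read 4.89 in WT against 5.29 in Nlrp6-/-. Its difference of 0.40 was above those of Psme1 and Psme2 by 0.28 and 0.30.

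Most of the rest of the proteasome was likewise within 1.5-fold of its WT level, as 90.7% of measured genes were. Of 10 measured genes for structural subunits of the 20S core, 6 were higher and 4 lower with a median of 0.14, and none was 1.5-fold apart. The widest was Psmb1 at 0.52, with Psma6 at 0.28 and Psma7 at 0.22. Psma5 was above the floor in WT alone, at 3.29. Of 20 genes of the 19S cap, which recognises and unfolds ubiquitin-tagged proteins, 12 were higher with a median of 0.05. Only Psmd3 was 1.5-fold apart there, at 5.25 in WT against 5.87 in Nlrp6-/-. In the other direction Psmc1 was at -0.45, Psmd11 at -0.40 and Psmd1 at -0.33. Psme4, another cap, differed by -0.09 and the inhibitor gene Psmf1 by -0.19. Among 8 genes for assembly and upkeep the largest difference was that of Ecpas, whose product tethers cap and core. It was 1.93-fold lower, at 6.90 in WT against 5.95 in Nlrp6-/-. The assembly chaperone gene Psmg4 was at 0.54, and Nfe2l1, the factor that restores proteasome synthesis under stress, at -0.39. The testis subunit Psma8 and the thymus subunit Psmb11 were not above the floor on either array.

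Downstream of the proteasome, the 4 members that transport and load peptides were each slightly lower in Nlrp6-/-, as 4612 of 9537 measured genes were. Tap1, which encodes 1 of the 2 chains of the peptide transporter, read 7.69 in WT against 7.31 in Nlrp6-/-. This was the widest difference among the 10 genes, a 1.29-fold lower level, and 27.5% of measured genes were at least as far from 0. Tap2, which encodes the other chain, read 3.84 and 3.78, differing by -0.06. Both Tap2 levels are near the floor. Tapbp, which encodes tapasin, the bridge between TAP and the empty class I molecule, read 6.62 in WT against 6.41 in Nlrp6-/-. B2m, the light chain of every class I molecule, read 11.52 in WT against 11.44 in Nlrp6-/-, differing by -0.07. All but Tap1 and Tapbp among these 4 were closer to their WT level than the receptor SD of 0.19, so their signs are uncertain.

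Other genes of peptide trimming and loading were within 1.5-fold of their WT level, except Sec61b and Lap3. Over all measured genes 9.26% were 1.5-fold apart. Of 13 measured genes for chaperones and editors in the endoplasmic reticulum, 9 were lower and 4 higher, with a median of -0.10. Erap1, the aminopeptidase that trims peptides to class I length, read 5.16 in WT against 4.74 in Nlrp6-/-. Tapbpl, the tapasin-related peptide editor, was at 6.38 and 6.13. Ganab, a glucosidase of glycoprotein folding, was at -0.40 and the sorting factor Bcap31 at 0.29. Sec61b, a subunit of the protein channel of the same organelle, was 1.69-fold higher, at 8.96 in WT against 9.71 in Nlrp6-/-. Of 7 measured cytosolic peptidases, 3 were higher and 4 lower. Lap3, an interferon-inducible leucine aminopeptidase, was 1.54-fold lower, at 4.96 in WT against 4.34 in Nlrp6-/-, and Tpp2 was at -0.42, with Npepps at -0.18 and Nrd1 at 0.11. Among 9 measured genes of cross-presentation, the loading of outside antigen onto class I, none was 1.5-fold apart. Rab27a was at 0.54, Cybb at -0.33, Rab43 at -0.29 and Derl1 at 0.12.

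Heavy chains of class I could be read only in part, because many probe sets of the H2 complex carry several gene symbols and were not named. H2-K1, a classical heavy chain, read 9.20 in WT against 9.10 in Nlrp6-/-. H2-D1 is not analysed here. Of 8 measured non-classical heavy chains, 7 were higher and 1 lower in Nlrp6-/-, with a median of 0.10. H2-T24 was 1.56-fold higher, at 4.85 in WT against 5.49 in Nlrp6-/-. H2-M3, which presents formylated bacterial peptides, was at 5.45 and 5.89. H2-T10 was at 3.06, not above the floor, in WT and at 3.76 in Nlrp6-/-, at least 1.41-fold higher against the floor. H2-T23, which encodes the Qa-1 molecule, differed by 0.07 and H2-Q5 by 0.13. Some heavy chain genes resemble one another closely, so probes can pick up RNA of a relative, and single values are uncertain. The 5 probe sets above the floor that name several class I heavy chains had differences from -0.52 to 0.15, 2 of them higher and 3 lower. Of class I-like molecules outside this family, 4 were measured and all 4 were lower. Procr, the endothelial protein C receptor, was 1.80-fold lower, at 8.36 in WT against 7.51 in Nlrp6-/-. Ulbp1, an NKG2D ligand, was at -0.37, the antibody receptor gene Fcgrt at -0.21 and H60b at -0.06.

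**Figure D3:**
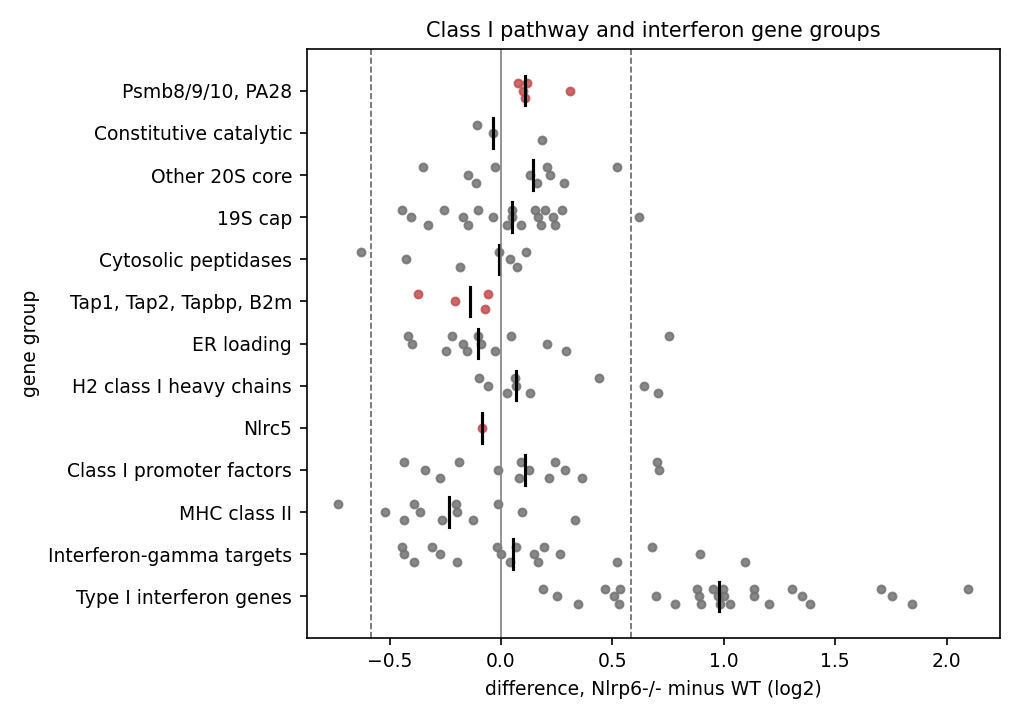
Log2 difference, Nlrp6-/- minus WT, of each measured gene, by gene group, with the group median as a bar, members in red and 1.5-fold dashed. The proteasome members lie to the right of 0 and the transport and loading members to the left, all inside the dashed lines. Most of them differ by less than the receptor SD of 0.19. The type I interferon genes are centred at 0.98. H2-T10 and other genes above the floor on 1 array are drawn at their measured difference.

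Nlrc5, the transactivator of class I genes, read 6.65 in WT against 6.56 in Nlrp6-/-, differing by -0.09, and 78.6% of measured genes were as far from 0 or further. Of 14 measured genes for factors that bind class I promoters, 9 were higher and 5 lower. The 2 that were 1.5-fold apart were Stat2, at 7.37 in WT against 8.08 in Nlrp6-/-, and Irf9, at 6.18 and 6.89. Both encode parts of ISGF3, the factor that type I interferon activates. Irf1, the factor that interferon-gamma induces and that acts on class I promoters, read 7.48 in WT against 7.21 in Nlrp6-/-. Rfx5, of the complex that NLRC5 docks on, was at 3.19 in WT, not above the floor, and at 3.44 in Nlrp6-/-. Rfxank of the same complex was at 0.36, and Ciita, the class II transactivator, at -0.44.

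Beside the members, the type I interferon list lay on the high side. It was chosen with earlier results of these data known, so its height is no independent support for a contrast. That list had 28 measured genes with a median difference of 0.98, all 28 of them higher, and 21 were at least 1.5-fold higher against 6.21% of measured genes. Ifit1, whose upstream stretch with 2 ISRE cores is printed above, read 6.61 in WT against 8.37 in Nlrp6-/-. B2m, with 1 such core, differed by -0.07. Cmpk2, a mitochondrial kinase gene whose 250 upstream bases held neither ISRE core nor GAS, had the widest difference of the type I list, from 4.78 in WT to 6.88 in Nlrp6-/-. Genes listed as interferon-gamma targets, which need not respond to it alone, were spread on both sides of 0. Of 18 measured, 11 were higher and 7 lower, with a median of 0.05. The 3 at least 1.5-fold higher were Cxcl10 at 1.10, Irgm2 at 0.89 and Igtp at 0.68, and none was 1.5-fold lower. Ifng itself was not above the floor on either array. Its receptor genes Ifngr1 and Ifngr2 differed by 0.18 and 0.08, and the kinases Jak1 and Jak2 by -0.10 and -0.08. None of these gaps between lists was tested.

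Of the 10 genes, Psmb9, Tap1, Psmb8 and Tap2 are direct neighbours in the H2 complex on chromosome 17, between the class II genes H2-DMb1 and H2-Ob in RefSeq's gene order. Along this order their differences were 0.11, -0.37, 0.31 and -0.06. Those of Psmb9 and Tap2 were smaller than the receptor SD of 0.19, so their signs are uncertain. Psmb9 and Tap1, whose starts are separated by those 225 bases, differed from each other by 0.48, and Psmb8 and its neighbour Tap1 by 0.68. Both gaps are under 0.79, the 90th percentile of disagreement among probe sets of the same gene. The class II genes around them leaned lower: of 8 measured from H2-Oa to H2-Eb1, 7 were lower, from H2-DMb1 at -0.73 to H2-Ob at -0.01, and H2-Oa was at 0.09. H2-DMb1 read 4.43 in WT against 3.70 in Nlrp6-/-, and it was the 1 gene of this stretch 1.5-fold apart. Over the whole class II list 10 of 12 measured genes were lower, with a median of -0.23. Besides H2-DMb1 the widest were H2-DMb2 at -0.52, Ciita at -0.44 and Marchf1 at -0.39. Psme1 and Psme2 also lie near each other, with Emc9 between them. Psme2 is followed by Rnf31 and then by Irf9, whose differences of 0.34 and 0.70 were wider than its own 0.10.

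**Figure D4:**
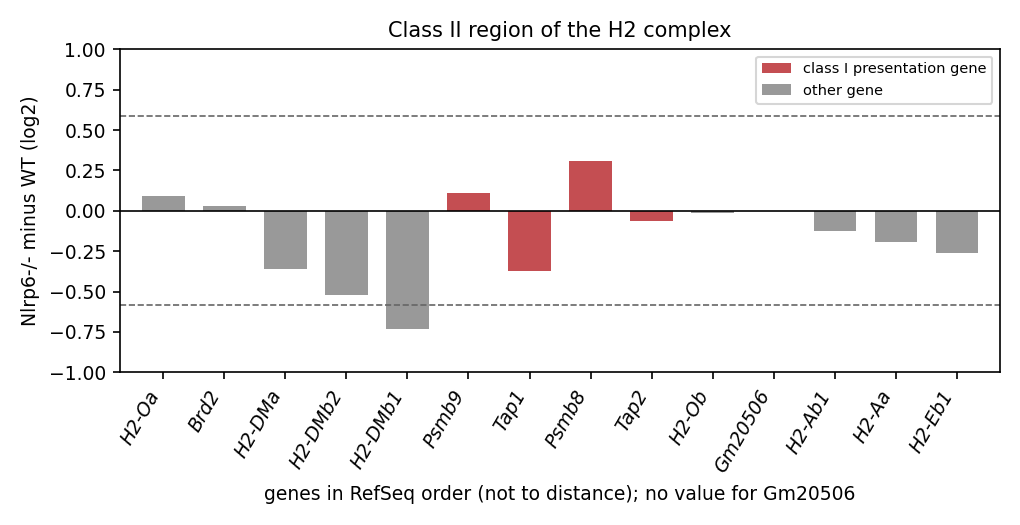
Log2 difference, Nlrp6-/- minus WT, of genes in RefSeq order (not to distance) from H2-Oa to H2-Eb1, with class I presentation genes in red, others in grey and 1.5-fold dashed. Psmb9 and Psmb8 are above 0 and Tap1 and Tap2 below, and only H2-DMb1 crosses the dashed line.

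Class I genes are active in most nucleated cells, so the makeup of the sort bears on these values. In such bulk RNA, fewer cells of a type and less RNA per cell cannot be told apart. Monocyte markers were present: 14 of 15 with a probe set were above the floor, 8 higher and 6 lower, with a median difference of 0.09. Summed over all 15, the linear level was 7976 in WT and 7816 in Nlrp6-/-. F13a1 at 1.06 and Fcgr1 at 0.88 were the 2 of the 14 at least 1.5-fold higher, against 6.21% of measured genes. None was 1.5-fold lower, against 3.05%, and the lowest was Lyz2 at -0.33. Nlrp6 was not above the floor on either array, at 2.32 in WT against 2.67 in Nlrp6-/-, so it does not check the labels. Of 20 epithelial markers 15 were measured and all 15 lay above their WT level, by a median of 0.99. Summed over all 20, whether above the floor or not, the linear level was 373 in WT and 813 in Nlrp6-/-. Krt20, Car4, Slc26a3, Elf3 and Fabp2 were not above the floor on either array. Sums of the other lists likewise take in every marker with a probe set. Higher markers were also 8 of 9 measured for B and plasma cells (summed 1048 and 1741) and 6 of 8 for neutrophils (783 and 1062). The same held for 11 of 14 stromal and endothelial markers (807 and 1420), 6 of 9 T and NK markers (576 and 613) and 4 of 6 dendritic cell markers (985 and 1318). Of 13 dendritic markers with a probe set, 7 were not above the floor on either array, among them Zbtb46, Xcr1, Batf3 and Siglech. Among the higher dendritic markers, Bst2 at 0.90 is also on the type I interferon list, and Cd24a was at 0.56. The 2 lower ones were Cd209a at -0.43 and Ccr7 at -0.13. Named markers that were higher included Mzb1 of plasma cells at 1.62, Mgp at 1.45 and Col1a2 at 1.19 of stroma, and S100a8 at 1.16, which neutrophils and monocytes share. The neutrophil gene Retnlg was at least 3.85-fold and the cytotoxic granule gene Gzma at least 2.55-fold higher against the floor, and Gzmb was at 0.87. In the same lists Ms4a1, Mpo, Elane, Vwf, Cldn5, Ncr1 and Flt3 were not above the floor on either array, and Cd3d read 4.52 in WT against 4.99 in Nlrp6-/-. Measured markers lower in Nlrp6-/- included Cd3e at -0.23 and Cd2 at -0.20 of the T and NK list, and Mmp8 at -0.17 of neutrophils. Cdh5 at -0.39 and Acta2 at -0.16 of the stromal and endothelial list were lower too. The part of these other cells in the class I values was not tested.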

How the data were processed

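Total RNA of sorted monocytes (10 ng per sample) was amplified to cDNA and hybridised to 1 array per genotype. Per the labels' protocols, the authors used oligo of Bioconductor (R 2.15.1) for RMA, and the deposited table holds them as log2 levels. RMA equalises the arrays' distributions, so a change shared by all genes is not visible. The set of arrays that entered RMA is not stated by the labels. Groups follow the genotype label, and the number of arrays limits the precision. The platform annotation gave 23525 of 41345 probe sets 1 symbol, 1810 several and 16010 none. Its build is not stated.

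With Python 3.11.15 and pandas 2.3.3, the probe set with the highest mean was taken per gene, and the difference computed. Floors came from 1406 receptor probe sets, and a gene under 1 floor entered fold calls at its bound, while signs, medians and ranges used measured levels. No test was possible. Only the 2-fold calls were tested on simulated data, with larger changes put into bright genes. The 1.5-fold calls and changes in genes of low level were not tested so. Motifs were searched on both strands of 32851 RefSeq promoter windows. Members, gene lists and the rule for named genes were chosen with earlier results of these data known. The rule names all members, up to 4 genes of a list with the widest differences, genes 1.5-fold apart, and fixed counterparts. Rnf31, Emc9, H2-Oa, H2-Ob, H2-T23, Ifng, Psma8, Psmb11, Nlrp6 and single marker genes were added as neighbours, relatives or checks after their values were seen. Alternatives were other centring, renewed quantile normalization, a loess curve, the mean of probe sets, other floors and a 3-fold threshold.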

Additional observations from a re-analysis of the deposited data

How the results depend on the processing

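No member was 1.5-fold or 2-fold apart under any of the other normalizations, floors or the mean of probe sets, and none was 3-fold apart. Each member kept its sign under the 4 alternatives of scaling and probe set choice: Tap1 ranged from -0.38 to -0.36 and Psmb8 from 0.29 to 0.32. The mean of probe sets could move Tapbp alone, the only member with a second probe set. The members' median stayed between 0.00 and 0.02. Under a stricter floor (99th percentile of the receptors) 8 members remained measured and 4 of these were higher. Fewer genes were measured with that floor (4954 in all), and short lists shrank. The class I-like value was then -0.85, which is the difference of Procr alone. For other proteasome caps and the inhibitor the median was 0.15, with only Psme3 and Psme4 left. The medians of cytosolic peptidases and of interferon-gamma receptor and kinase genes lay near 0 and changed sign, each under 2 alternatives. The medians of 6 of the 7 marker lists moved by more than the receptor SD under other floors, the epithelial one to 0.61 without a floor and to 1.44 with the stricter one. No paired analysis was possible because each genotype has 1 array, and for the same reason no replicate could be left out. The 1 array per genotype and the low signal of Tap2 and Psme2, the members not above the stricter floor, limit what these data can show.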
